A study of Mus musculus with 12 samples.

Results

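The 42 genes described here encode the machinery that brings proteins and metabolites into mitochondria and shapes, fuses, divides and removes the organelle. They are subunits of the outer and inner membrane translocases, porins, metabolite carriers, fusion and fission factors, cristae proteins, mitophagy receptors and matrix or inner membrane proteases. Members were picked by gene name and read by Ensembl identifier from the count tables, 42 of 55401 listed genes. The test was run on 6596 genes, 41 of them members. Bnip3, a mitophagy receptor, had 95 counts over all libraries and was not tested. Of the 42 members, 12 have near-identical copies elsewhere in the genome, and the handling of reads that fit both a member and its copy was not stated.

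Hearts of adult wild-type mice (WT) and of mice lacking Rpl3l (Rpl3l-/-, here KO) were studied. Rpl3l is the striated muscle paralog of the ribosomal protein gene Rpl3. Each genotype gave 3 IP libraries, from ribosomes captured with an anti-HA antibody out of hearts treated with cycloheximide, which halts elongating ribosomes. Each also gave 3 Input libraries of total heart RNA from homogenates. Which cells carry the HA tag, on which protein, whether the Input hearts carried it or received cycloheximide, and whether an IP and an Input library share a heart were not stated. If replicates were not separate animals, p-values measure only the spread between these libraries. IP RNA was purified on columns and Input RNA with TRIzol, so purification and fraction cannot be told apart.

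Libraries held 169359 to 710868 counts, the smallest being KO Input replicate 3, and 3 counts stand for 4.22 to 17.7 CPM (counts scaled to a common library size). Rpl3l averaged 269.6 CPM in WT Input, 48.9 in KO Input, 272 in WT IP and 4.42 in KO IP, with every KO library below every WT library. Of 8 cardiomyocyte markers, 7 were detected, with a summed level of 46603 to 62183 CPM per library, and Actc1 was listed at 0 throughout. Erythroid markers ranged from 16208 CPM in KO IP replicate 3 to 203088 CPM in WT IP replicate 2. In bulk tissue, fewer cells of a type and less RNA per cell cannot be told apart.

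Most mitochondrial proteins are made in the cytosol and enter through the TOM complex of the outer membrane. The TIM23 translocase carries those with a presequence onward, while small TIM chaperones escort hydrophobic precursors such as carriers across the intermembrane space. Heart muscle cells are packed with mitochondria, exchange ATP for ADP through adenine nucleotide translocases, and depend on fusion, fission and mitophagy to keep the network working.

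Coding sequences are shown for 3 members, because the 2 members furthest below Input in the ribosome fraction, Tomm7 and Timm8b, encode very small proteins, and Tomm6 is the second shortest member after Tomm7. They are from GENCODE M21 (build GRCm38), 5′ to 3′, with start and stop codons in capitals. Tomm7 has 55 codons and lies at chr5:23838944-23844161, minus strand. Tomm6 has 74 codons (chr17:47686646-47688386, minus strand), and Timm8b has 83 (chr9:50603910-50605320, plus strand). The paralogs Chchd2 (153 codons, chr5:129881156-129887470, minus strand) and Chchd10 (138 codons, chr10:75933130-75937747, plus strand) are short too but were higher in IP where called.
Tomm7: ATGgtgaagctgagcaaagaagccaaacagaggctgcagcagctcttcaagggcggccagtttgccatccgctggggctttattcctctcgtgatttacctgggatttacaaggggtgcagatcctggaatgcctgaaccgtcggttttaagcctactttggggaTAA
Tomm6: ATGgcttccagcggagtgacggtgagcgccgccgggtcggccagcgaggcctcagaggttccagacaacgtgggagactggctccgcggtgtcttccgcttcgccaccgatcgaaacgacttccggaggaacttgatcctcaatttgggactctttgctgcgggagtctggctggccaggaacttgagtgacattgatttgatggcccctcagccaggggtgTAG
Timm8b: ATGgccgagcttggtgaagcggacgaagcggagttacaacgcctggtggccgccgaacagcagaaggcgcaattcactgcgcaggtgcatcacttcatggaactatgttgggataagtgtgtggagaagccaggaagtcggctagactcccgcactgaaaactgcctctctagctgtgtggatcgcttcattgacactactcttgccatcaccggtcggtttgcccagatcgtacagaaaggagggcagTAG

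Together the members made up 2.27% to 3.24% of the counts, depending on the library, and Slc25a4, the heart's main adenine nucleotide translocase, took 0.913% to 1.51% alone. Per kilobase of its longest transcript, Slc25a4 stood at 7415 ± 681 CPM in WT Input (SD, n = 3), far above every other member. Chchd2 (1846 ± 67.4), the phosphate carrier Slc25a3 (1521 ± 115) and Chchd10 (1046 ± 154) followed on the same scale, and then Timm8b (716 ± 24.6) and the porin Vdac1 (692 ± 89.1), whose ranges overlap. The lowest levels per kilobase belonged to the fission GTPase Dnm1l (18.7 ± 1.98), the inner membrane fusion GTPase Opa1 (18.7 ± 2.99) and Bnip3 (15.7 ± 9.85). A long annotated transcript that the heart does not use lowers such a value, so the order is approximate. The order also rests on the division by length, which long nanopore reads may not call for. Undivided, Vdac1 (1261, 1603 and 1333 CPM in WT Input) stood above Timm8b (356, 377 and 379.5). Likewise Opa1 (135, 118 and 97.4 CPM) stood above Fundc1 (44.9, 37.0 and 50.4), which it follows per kilobase.

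The comparison of IP with Input asks which members are over- or under-represented on tagged ribosomes relative to the tissue. In WT, 12 of 41 members passed (29 did not), 6 higher and 6 lower in IP, where 14.0% of all tested genes did (5.37% higher, 8.67% lower). KO hearts also gave 12, again 6 and 6, against 16.4% of all genes (6.64% higher, 9.78% lower). The median log2 fold change was -0.01 in WT and 0.00 in KO, beside 0.02 and 0.01 over all genes. Mfn2, Immt and Lonp1 were higher and Tomm7, Timm8b and Tomm20 lower in both genotypes, where 2.52% of all genes were higher in both and 5.46% lower in both. No library is used in both comparisons. The direction was the same for 36 of 41 members (87.8%, against 73.6% of all genes), with a correlation across members of r = 0.78 (Spearman 0.79; all genes 0.66 and 0.62). Genes are not independent replicates, and no member passed in opposite directions. Libraries of the 2 fractions were fully apart for 12 members higher and 10 lower in WT (16.4% and 18.2% of all genes), and for 8 and 6 in KO (15.2% and 15.6%).

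The split depends on the scaling. With library totals in place of TMM factors it was 10 higher and 3 lower in WT and 8 and 3 in KO, with the median of all genes at 0.11 and 0.15. DESeq2 size factors gave 7 and 4 in WT, and 6 and 5 in KO. The WT count also rests on single libraries, with 6 called without WT IP replicate 1 or 2 or without any one of the 3 WT Input libraries, and KO gave 7 without KO Input replicate 1. Each of the 6 members called in both genotypes, along with Chchd2, Chchd10 and Slc25a3, is plotted by library.

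**Figure D1:**
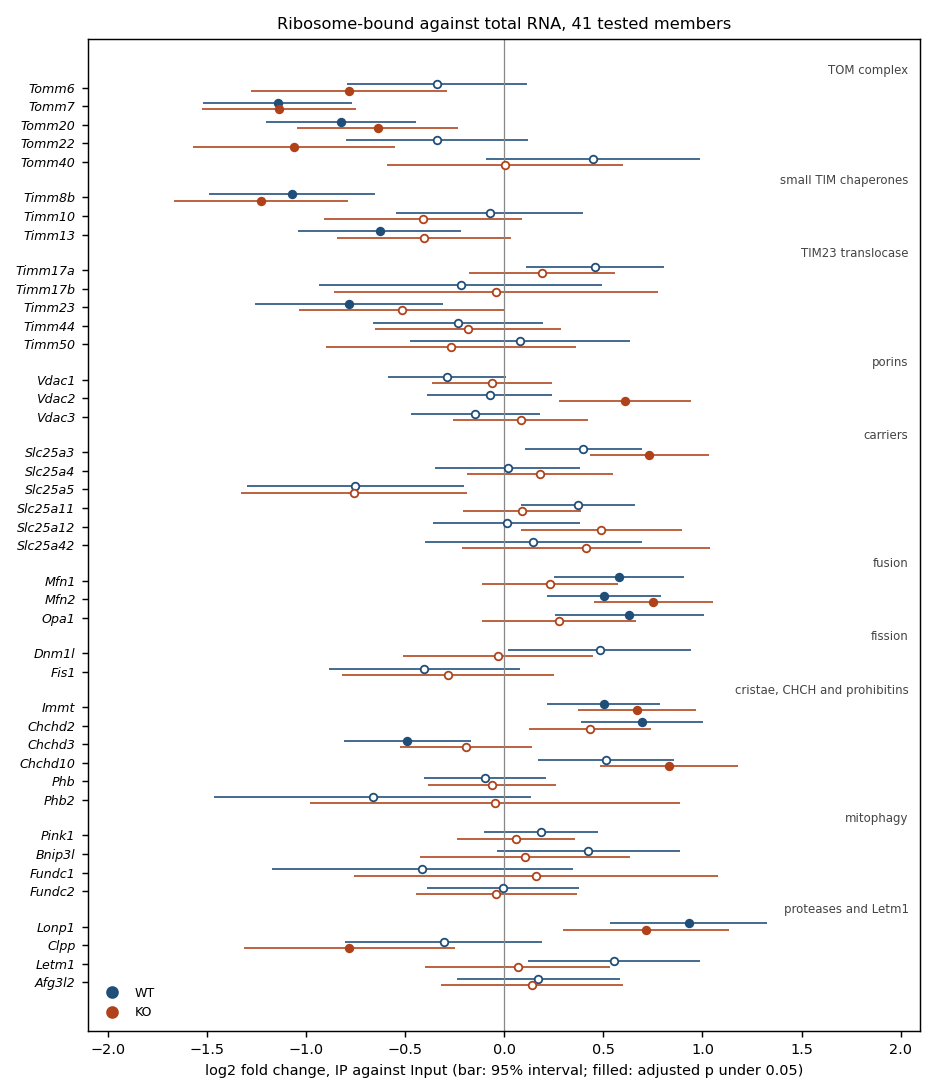
Log2 fold change of IP against Input (x axis) for the 41 tested members grouped by role (y axis), WT in blue and KO in brown. Bars are 95% intervals from edgeR and filled points have adjusted p under 0.05. Tomm7, Timm8b and Tomm20 lie to the left and Mfn2, Immt and Lonp1 to the right as filled points in both genotypes.

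Of 5 TOM subunits, 2 were lower in IP in WT and 4 in KO, and none was higher. Over all tested genes 8.67% and 9.78% were lower, and 24.5% and 28.5% of those with under 600 coding bases. The called subunits all belong to this short class. Tomm7, a small subunit that modulates TOM assembly, stood at 456, 471 and 363 CPM in the WT Input libraries and at 210.2, 202 and 173 in WT IP. In KO it went from 583, 389 and 364 CPM in Input to 247, 167 and 203 in IP. No IP library reached the lowest Input library in either genotype, and the log2 fold change was -1.14 in both (SE 0.19 in WT and 0.20 in KO, adjusted p 0.000152 and 0.000232, edgeR). Tomm20, the receptor that recognises presequences, had 194, 189.9 and 188 CPM in WT Input and 97.7, 101 and 125 in WT IP. In KO it had 187, 204 and 119 CPM in Input against 119, 102 and 115 in IP. KO Input replicate 3 lay just above the highest KO IP library, and the other Input libraries well above it. Its log2 fold change was -0.82 in WT (SE 0.19, adjusted p 0.00471), a call kept without any single library. In KO it was -0.64 (SE 0.21, adjusted p 0.0362). The KO call held in only 1 of 6 fits that each leave out a KO library (adjusted p up to 0.208), the one without KO Input replicate 3. It was also lost with library totals, no count filter, the DESeq2 test, a replicate block or only the compared libraries (adjusted p 0.0543 to 0.206).

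Tomm22, the central receptor of the complex, was called only in KO, where Input held 156, 143 and 96.6 CPM and IP 84.0, 54.9 and 58.2. The fractions did not overlap in KO (-1.06 on the log2 scale, SE 0.26, adjusted p 0.00558). Without KO Input replicate 1 the adjusted p was 0.0522, and the WT value was -0.34. Tomm6, another small subunit, passed in KO as well (-0.78, SE 0.25, adjusted p 0.0340), from 255, 204 and 102 CPM in Input to 152, 90.3 and 101 in IP. The KO groups overlap, and the call ended without KO IP replicate 2 or 3 or KO Input replicate 1 or 2 (adjusted p up to 0.296). Tomm40, the pore itself, did not pass in WT (0.45) or KO (0.00).

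The small TIM chaperone Timm8b, partner of Timm13 in the intermembrane space, was at 356, 377 and 379.5 CPM in WT Input and 199.8, 130.2 and 199 in WT IP. KO Input had 484, 362 and 233 CPM and KO IP 121, 182 and 158. IP libraries lay below Input libraries in both genotypes, with log2 fold changes of -1.07 (SE 0.21, adjusted p 0.00109) and -1.23 (SE 0.22, adjusted p 0.000392), called without any single library. Timm13 passed in WT (174, 199.7 and 195 CPM in Input, 142, 118 and 106 in IP, log2 fold change -0.63, SE 0.21, adjusted p 0.0455). That call ended without any 1 of the 6 WT libraries (adjusted p 0.0609 to 0.175), and in KO the value was -0.40 without a call. Timm10, which carries hydrophobic precursors with Timm9, had -0.07 in WT and -0.41 in KO.

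In the TIM23 translocase 1 of 5 members passed, lower in WT IP (8.67% of all tested genes). Timm23, the channel subunit, had 209, 239 and 222 CPM in WT Input and 118, 108 and 164 in WT IP, without overlap (log2 fold change -0.78, SE 0.24, adjusted p 0.0307). Only the fit without WT IP replicate 3 kept that call among those leaving out 1 library (adjusted p up to 0.136). Adding the counts of its near-identical copies also ended it (-0.57, adjusted p 0.0791). Timm17a, Timm17b, Timm44, the motor's tether, and Timm50, the presequence receptor, did not pass in either genotype, with log2 fold changes from -0.27 to 0.46. Of the channel's paired subunits, Timm17a had 149.6, 178 and 218 CPM in WT Input, 213, 200.3 and 182 in KO Input, 239.8, 267 and 236 in WT IP and 261, 218 and 208 in KO IP. Timm17b had 24.9, 69.0 and 47.0 CPM in WT Input, 41.9, 53.9 and 11.4 in KO Input, 45.9, 36.0 and 38.7 in WT IP and 44.3, 28.8 and 39.9 in KO IP, far lower and more scattered in Input.

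Of 3 porins and 6 carriers, 2 passed, both higher in KO IP (6.64% of all tested genes). Slc25a4 had 15631, 14177 and 13015 CPM in WT Input and 14359, 15234 and 13720 in WT IP, with overlapping groups. Its log2 fold change was 0.02 in WT (SE 0.19) and 0.18 in KO (SE 0.19). Slc25a3, which imports phosphate for ATP synthesis, was higher on KO ribosomes, at 3645, 3239 and 3412 CPM against 2171, 2049 and 1972 in KO Input. No KO Input library came near the KO IP libraries (log2 fold change 0.73, SE 0.15, adjusted p 0.00151). This call held without any single library. In WT the 3 IP libraries (3040.5, 3396 and 3273 CPM) were also above the 3 Input libraries (2440.3, 2644 and 2274), but the test did not pass (0.40, SE 0.15, adjusted p 0.0787).

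Vdac2, a porin that also binds the cell death protein Bak, was higher in KO IP (693, 502 and 582 CPM) than in KO Input (419, 424 and 307). The groups are apart (log2 fold change 0.61, SE 0.17, adjusted p 0.0140), but without KO IP replicate 1 or KO Input replicate 3 the adjusted p was 0.0614 and 0.0617. In WT the values were 561, 535 and 571 CPM in Input and 471, 555 and 558 in IP (-0.07). Vdac1, the most abundant porin, and Vdac3 did not pass. Vdac1 had 1261, 1603 and 1333 CPM in WT Input, 1173, 1441 and 1210.3 in KO Input, 1112, 1155 and 1169 in WT IP and 1332, 1078 and 1257 in KO IP. Vdac3 had 359, 330.4 and 282 CPM in WT Input and 308, 304 and 250.025 in KO Input. It had 274, 291 and 317 CPM in WT IP and 341, 262 and 322 in KO IP, overlapping throughout. These values leave out reads given to its near-identical copy Vdac3-ps1, which lay mostly in IP. The overlap of the fractions and the lack of a call may therefore depend on how reads were assigned between Vdac3 and this copy. That copy had 101, 82 and 88 counts in WT IP and 0, 23 and 15 in WT Input. In KO it had 64, 91 and 94 counts in IP and 11, 0 and 0 in Input. Slc25a5, the adenine nucleotide translocase of dividing cells, did not pass but had negative log2 fold changes in both genotypes (-0.75 and -0.76, adjusted p 0.0736 and 0.0780). It had 327, 308 and 296 CPM in WT Input, 324, 300.4 and 318 in KO Input, 173, 113 and 268 in WT IP and 77.0, 259 and 204 in KO IP, so every IP library lay below the Input libraries of its genotype. The aspartate/glutamate carrier Slc25a12, the oxoglutarate carrier Slc25a11 and the coenzyme A carrier Slc25a42 had log2 fold changes from 0.01 to 0.49 without passing.

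**Figure D2:**
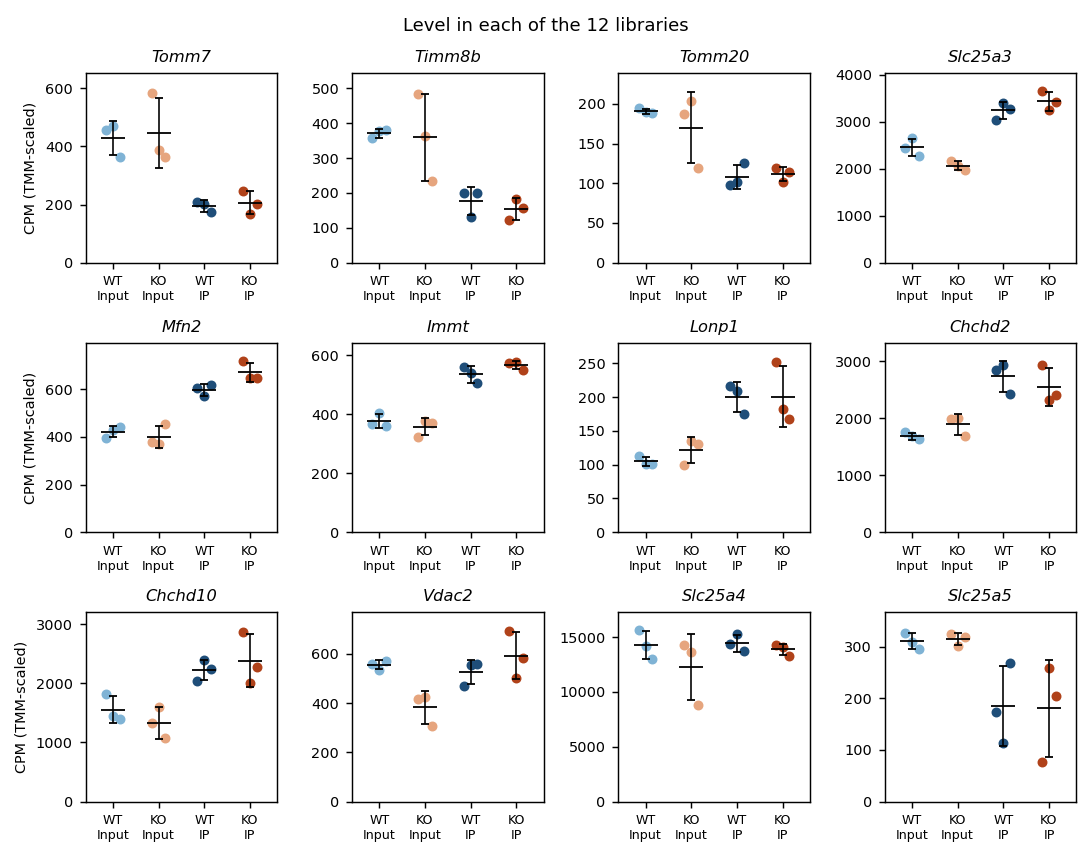
CPM after TMM scaling (y axes, from 0) in each library of the 4 groups (x axes) for 12 members, with group mean and SD in black. For Tomm7 and Timm8b every IP point lies below every Input point of its genotype, and for Mfn2, Immt and Lonp1 every IP point lies above.

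Fusion genes were higher on ribosomes, all 3 in WT and Mfn2 in KO (5.37% and 6.64% of all tested genes). Mfn2, an outer membrane GTPase that also tethers mitochondria to the endoplasmic reticulum, had 396, 429 and 440.0 CPM in WT Input and 605, 570.5 and 618 in WT IP. KO Input held 377, 369.8 and 455 CPM and KO IP 719, 648 and 648. Every IP library exceeded every Input library, with log2 fold changes of 0.50 in WT (SE 0.15, adjusted p 0.0216) and 0.75 in KO (SE 0.15, adjusted p 0.00114). The KO call held without any single library, the WT call only without WT IP replicate 2 (adjusted p up to 0.110). Its paralog Mfn1 went from 209, 212 and 232 CPM to 332, 327 and 313 in WT (0.58, SE 0.17, adjusted p 0.0216). Opa1 had 135, 118 and 97.4 CPM in WT Input and 163, 194 and 192 in WT IP (0.63, SE 0.19, adjusted p 0.0287). Each of these WT calls was lost in 4 of 6 fits that leave out 1 library (adjusted p up to 0.0914 for Mfn1, lost without WT IP or Input replicate 1 or 2, and 0.140 for Opa1, lost without WT IP or Input replicate 2 or 3). KO values were 0.23 and 0.28. The fission genes Dnm1l (0.48 in WT, -0.03 in KO) and its adaptor Fis1 (-0.40 and -0.29) did not pass.

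Among cristae genes, Immt, the scaffold of the cristae junction complex, had 366, 404 and 359 CPM in WT Input and 559.5, 538 and 505 in WT IP. In KO the libraries were at 324, 377 and 369 CPM in Input and 572, 578 and 550.2 in IP. Input and IP are fully separated (0.50, SE 0.15, adjusted p 0.0216 in WT, and 0.67, SE 0.15, adjusted p 0.00308 in KO). The KO call held without any single library, and the WT call ended without WT IP replicate 1 or 2 or WT Input replicate 1 or 3 (adjusted p up to 0.0954). Chchd3, a partner of Immt in that complex, was lower in WT IP (432, 382 and 523 CPM against 616, 688 and 571, log2 fold change -0.49, SE 0.16, adjusted p 0.0449). Of the 6 fits without 1 library, only that without WT IP replicate 3 kept this call (adjusted p up to 0.205). The prohibitins Phb and Phb2, ring-forming scaffolds of the inner membrane, did not pass. Phb had 396, 454 and 447 CPM in WT Input, 434, 412 and 375 in KO Input, 398, 418 and 396 in WT IP and 453, 319 and 409 in KO IP. Phb2 had 107, 71.5 and 73.9 CPM in WT Input, 45.7, 88.6 and 11.4 in KO Input, 50.3, 24.0 and 86.3 in WT IP and 32.7, 37.9 and 78.1 in KO IP, scattered most in KO Input.

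Chchd2 and Chchd10 encode a pair of small intermembrane space proteins that bind each other. Chchd2 had 1752, 1687 and 1629 CPM in WT Input and 2847, 2939.8 and 2421 in WT IP, well apart (0.70, SE 0.16, adjusted p 0.00348), and the call held without any single library. In KO it had 1984, 2011 and 1682 CPM in Input and 2940.3, 2319 and 2412 in IP (0.43, adjusted p 0.0634). Chchd10 showed the reverse pattern of calls. KO IP held 2873, 2012 and 2269 CPM against 1329, 1602 and 1068 in KO Input (0.83, SE 0.18, adjusted p 0.00181, held without any single library). WT IP held 2044, 2388 and 2236 CPM against 1819.6, 1448 and 1404 in WT Input (0.51, SE 0.17, adjusted p 0.0504). The IP libraries lay above the Input libraries for both genes in both genotypes, and neither gene had a called difference between genotypes.

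Mitophagy members showed no called difference between fractions. Pink1, the kinase that marks damaged mitochondria, had 573, 656 and 494 CPM in WT Input and 634, 661 and 669 in WT IP (log2 fold change 0.19, SE 0.15). Bnip3l, a receptor that also clears mitochondria from maturing red cells, and the receptors Fundc1 and Fundc2 had log2 fold changes from -0.41 to 0.42. Bnip3l had 105, 111 and 165 CPM in WT Input, 95.2, 127 and 90.9 in KO Input, 142, 235 and 127 in WT IP and 112, 98.1 and 131 in KO IP. Fundc2 had 214, 247 and 175 CPM in WT Input, 202, 247 and 182 in KO Input, 225, 158 and 254 in WT IP and 179.7, 224 and 211 in KO IP. Fundc1 was thinly counted, with 1, 8 and 10 counts in KO Input. It had 44.9, 37.0 and 50.4 CPM in WT Input, 3.81, 30.8 and 56.8 in KO Input, 35.5, 32.6 and 29.9 in WT IP and 30.3, 31.4 and 31.6 in KO IP. The untested Bnip3 had 22.4, 46.9 and 13.4 CPM in WT Input, 26.7, 11.6 and 5.68 in KO Input, 14.8, 8.57 and 10.6 in WT IP and 21.002, 19.6 and 11.6 in KO IP, close to the level of 3 counts in several libraries. The matrix protease Lonp1, which degrades oxidised proteins, was at 112, 101 and 101 CPM in WT Input and 216, 209 and 174 in WT IP. In KO it went from 99.0, 135 and 131 CPM to 252, 182 and 168. All IP libraries exceeded the Input libraries of their genotype (0.93, SE 0.20, adjusted p 0.00243 in WT, held without any single library, and 0.72, SE 0.21, adjusted p 0.0228 in KO). Without KO IP replicate 1 or KO Input replicate 1 the KO call ended (adjusted p 0.0939 and 0.142).

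Clpp, the proteolytic subunit of another matrix protease, was lower in KO IP (81.7, 62.8 and 91.4 CPM against 126, 127 and 153, log2 fold change -0.78, SE 0.27, adjusted p 0.0496). No fit leaving out 1 KO library kept that call (adjusted p 0.0596 to 0.195). The inner membrane protease subunit Afg3l2 (0.17 and 0.14) and the cation exchanger Letm1 (0.55, adjusted p 0.0959 in WT, and 0.07 in KO) did not pass.

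Across the tested members the IP to Input ratio was larger where the coding sequence was longer. Over the 41 members, r between the log2 fold change and log coding length was 0.64 in WT and 0.60 in KO (Spearman 0.61 and 0.56), where all genes with a coding length gave 0.24 and 0.30. The points share libraries and genes are not independent replicates, so these are descriptions. Of 14 members with under 600 coding bases, 4 were lower and 1 higher in WT, and 5 lower and 1 higher in KO. Among all genes of that length 24.5% were lower and 2.36% higher in WT, and 28.5% and 2.09% in KO. Of 27 longer members, 5 were higher and 2 lower in WT, and 5 higher and 1 lower in KO, beside 5.56% higher and 5.41% lower of all longer genes in WT and 7.43% and 5.84% in KO. The short member higher in IP was Chchd2 in WT and Chchd10 in KO. With the trend of transcript length removed, 6 members were higher and 2 lower in WT, and 7 and 3 in KO. In both genotypes the higher ones included members not called without the correction. Of the higher WT calls made without it, only Chchd2, Immt and Lonp1 remained. With this correction Timm8b lost its calls (-0.49, adjusted p 0.130 in WT, and -0.47, adjusted p 0.159 in KO), as did Mfn1, Mfn2, Opa1, Timm13, Timm23 and Chchd3 in WT and Tomm6 and Clpp in KO, while Tomm7 kept both. It does not address coding length, as a short coding sequence can lie in a long transcript (Tomm20, 435 coding bases of 4902).

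**Figure D3:**
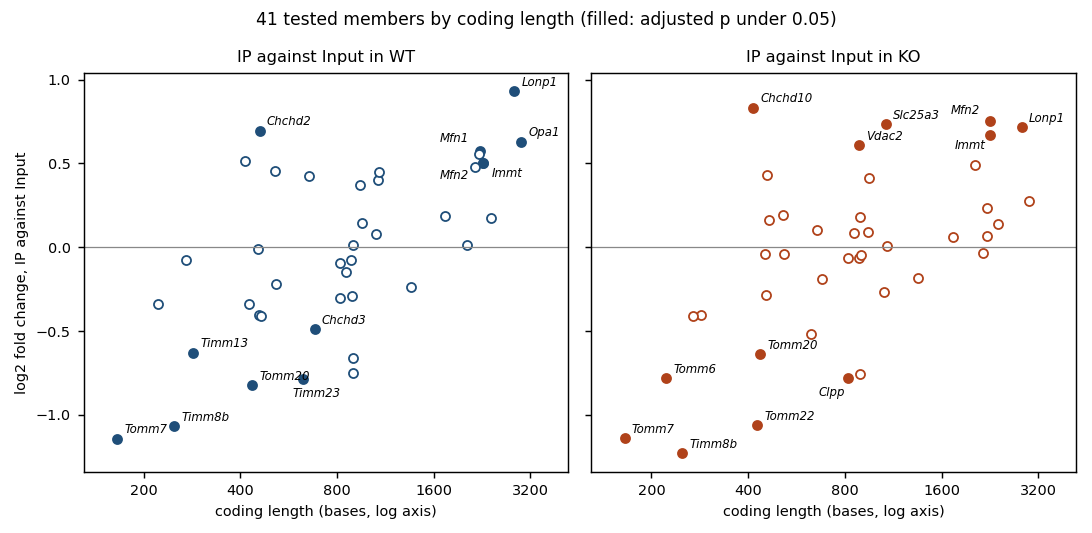
Log2 fold change of IP against Input (y axis) by coding length in bases (x axis, log scale) for the 41 tested members, WT left and KO right. Filled, named points have adjusted p under 0.05. Tomm7 and Timm8b, of 55 and 83 codons, are lowest, long members such as Lonp1 and Mfn2 are high, and Chchd2 and Chchd10 sit high among the short ones.

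Summed cell type markers are given for both fractions. Cardiomyocyte markers gave 49416 to 53839 CPM in WT IP and 54035 to 62183 in WT Input, without overlap, and 46603 to 53912 in KO IP and 47618 to 58214 in KO Input, overlapping. Fibroblast markers (6 of 6 detected) were above Input in WT, at 1441 to 1750.2 CPM against 1238 to 1387, and overlapped in KO, at 1734 to 1941 against 1140.2 to 1847. Adipocyte markers (5 of 5 detected) summed to 13.7 to 52.8 CPM in WT IP and 23.3 to 48.4 in KO IP, against 106 to 507 in WT Input and 153 to 328 in KO Input. Brown adipocyte markers (3 of 4 detected, Elovl3 at 0 throughout) gave 45.8 to 85.7 and 37.3 to 47.1 CPM in WT and KO IP, and 59.2 to 289 and 22.7 to 110.4 in WT and KO Input, overlapping in both genotypes. Endothelial markers (6 of 6) gave 540 to 552 CPM in WT IP and 525 to 595 in KO IP, and 749 to 774 in WT Input and 743 to 898 in KO Input, without overlap. Erythroid, macrophage and smooth muscle sums overlapped between fractions in both genotypes. Their part in the members' IP to Input values was not tested.

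The comparison of KO with WT asks whether loss of Rpl3l changed these transcripts in the tissue or on ribosomes, and no member was called in either fraction. Over all genes 0.182% passed in Input and 0.0910% in IP. By edgeR, 1 member had an unadjusted p under 0.05 in Input and 2 in IP, and DESeq2 and limma-voom called none either. Member log2 fold changes ran from -0.71 to 0.47 in Input (median -0.08, all genes -0.01) and from -0.58 to 0.17 in IP (median -0.06, all genes 0.00). For 38 of 41 members in Input and 38 of 41 in IP, the 95% interval (1.96 SE each way) lay within a 2-fold change in either direction, and for 20 and 26 within 1.5-fold. For the members counted, the interval leaves out changes beyond the fold named.

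Groups did not overlap for 3 members in Input, 1 higher and 2 lower in KO (12.4% of all genes, 6.17% higher and 6.20% lower). In IP they were 3 as well, 1 higher and 2 lower (10.8%, 5.40% and 5.44%). In Input, Vdac2 was at 561, 535 and 571 CPM in WT and 419, 424 and 307 in KO (log2 fold change -0.52, SE 0.17, adjusted p 0.456). KO Input replicate 3 was lowest (-0.40 without it), and no KO library reached the WT range. For Slc25a3 all KO libraries were under the WT libraries (-0.25, SE 0.15), and for Opa1 all were above them (175, 146 and 148 CPM in KO, 135, 118 and 97.4 in WT, 0.41, SE 0.22, adjusted p 0.723). Chchd3 had the third smallest p in Input (-0.31, SE 0.17, adjusted p 0.741), with overlapping groups.

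In IP, Tomm22 (84.0, 54.9 and 58.2 CPM in KO, 90.3, 89.1 and 109 in WT, -0.58, SE 0.24, adjusted p 0.920) and Timm50 (56.0, 40.6 and 58.2 against 65.1, 87.4 and 61.6, -0.48, SE 0.28, adjusted p 0.965) had every KO library under the WT libraries. Mfn2 had every KO library above them (0.17, SE 0.14). Bnip3l had the smallest p in IP (112, 98.1 and 131 CPM in KO against 142, 235 and 127 in WT, -0.56, SE 0.23, adjusted p 0.917). Its highest value came from WT IP replicate 2, the library with the highest erythroid sum, and without it the log2 fold change was -0.25. Whether the erythroid content bears on the Bnip3l level was not tested.

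The test of the difference itself asks whether IP against Input was different in KO and WT. No member passed (0.0910% of all genes did), 2 had an unadjusted p under 0.05, and DESeq2 and limma-voom called none. Vdac2 had the smallest p, with a ratio higher in KO by 0.68 on the log2 scale (SE 0.23, adjusted p 0.529). Tomm22 had -0.72 (SE 0.35, adjusted p 0.711) and Slc25a12 0.48 (SE 0.28, adjusted p 0.777). Slc25a12 had 247, 205 and 215 CPM in WT Input, 122, 219.6 and 176 in KO Input, 225, 259 and 188 in WT IP and 222, 241 and 261 in KO IP. In KO every IP library lay above every Input library, and the other comparisons overlapped. Calls made in 1 genotype, such as Tomm22 and Chchd10 in KO or Chchd2 and Opa1 in WT, are therefore not shown to differ between genotypes. The intervals are wide, within 2-fold for 26 of 41 members.

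**Figure D4:**
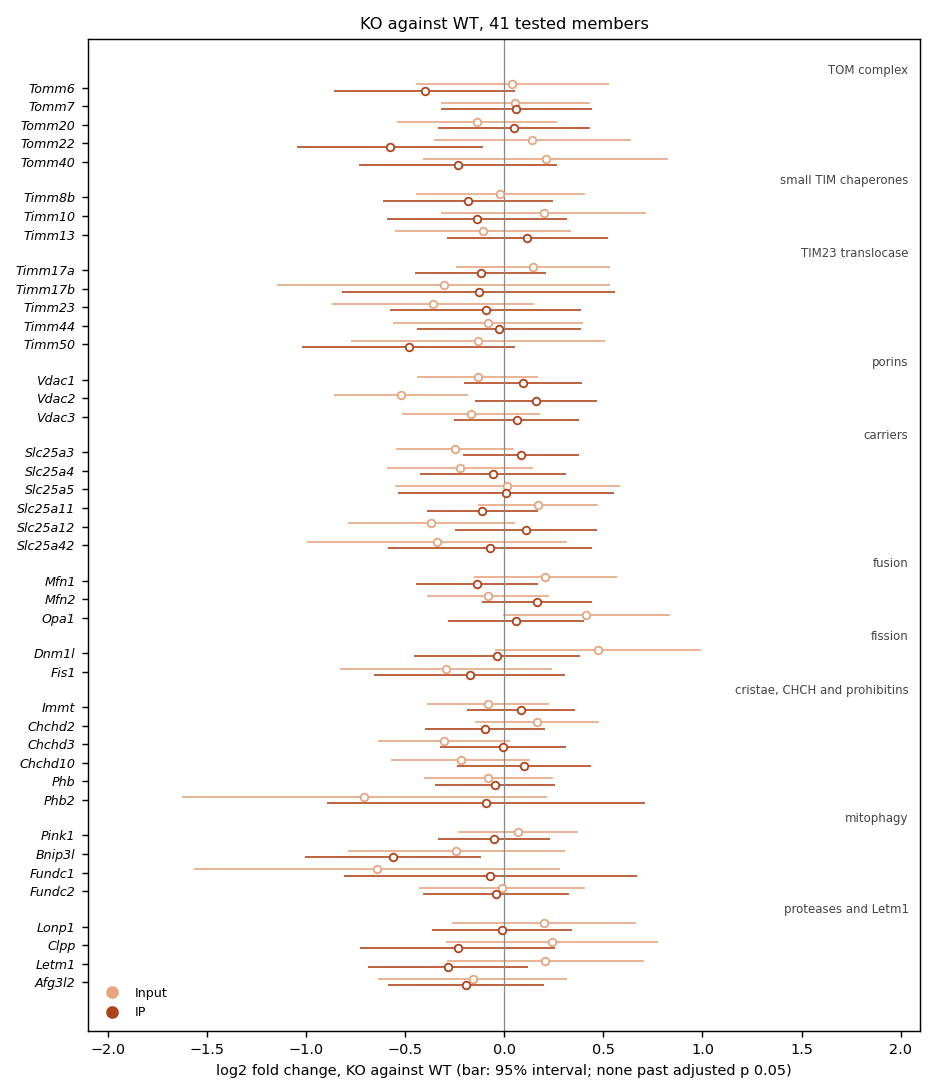
Log2 fold change of KO against WT (x axis) in Input (light brown) and IP (dark brown) for the 41 tested members grouped by role (y axis), with 95% intervals as bars. No member passed the adjusted threshold. The lowest Input values are those of the thinly counted Phb2 and Fundc1.

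Within paralog pairs the mix of transcripts was compared as counts of one per 100 counts of the other, a description with no test. Of 36 comparisons over 9 ratios, 8 had groups that do not overlap. Levels of single genes were apart between genotypes for 12.4% of all tested genes in Input and 10.8% in IP. Between fractions, 16.4% were apart and higher in IP and 18.2% lower in WT, and 15.2% and 15.6% in KO. Slc25a5 per 100 Slc25a4 counts was 2.09, 2.17 and 2.27 in WT Input and 1.21, 0.742 and 1.95 in WT IP. KO Input had 2.26, 2.20 and 3.62 and KO IP 0.540, 1.84 and 1.54. The ratio was lower in every IP library than in the Input libraries of its genotype, with IP libraries spread widely. Mfn1 per 100 Mfn2 counts averaged 51.6 ± 1.92 in WT Input, 63.1 ± 2.27 in KO Input, 54.3 ± 3.35 in WT IP and 44.0 ± 4.88 in KO IP (SD, n = 3). KO lay above WT in every Input library and below it in every IP library.

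Chchd10 per 100 Chchd2 counts was 91.9 ± 10.3 in WT Input and 70.1 ± 8.52 in KO Input, all KO libraries lower, and 81.8 ± 10.3 and 92.8 ± 5.58 in WT and KO IP, overlapping. In KO every IP library was above every Input library. Vdac2 per 100 Vdac1 counts was 40.2 ± 5.98, 30.2 ± 5.22, 46.1 ± 3.22 and 48.3 ± 3.22 in WT Input, KO Input, WT IP and KO IP, apart only between KO Input and KO IP. Ratios of Vdac3 to Vdac1, Timm17b to Timm17a, Bnip3 to Bnip3l, Fundc1 to Fundc2 and Phb2 to Phb overlapped in all comparisons. Counts on the copy Vdac3-ps1, most of them in IP, are not part of the Vdac3 ratio.

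**Figure D5:**
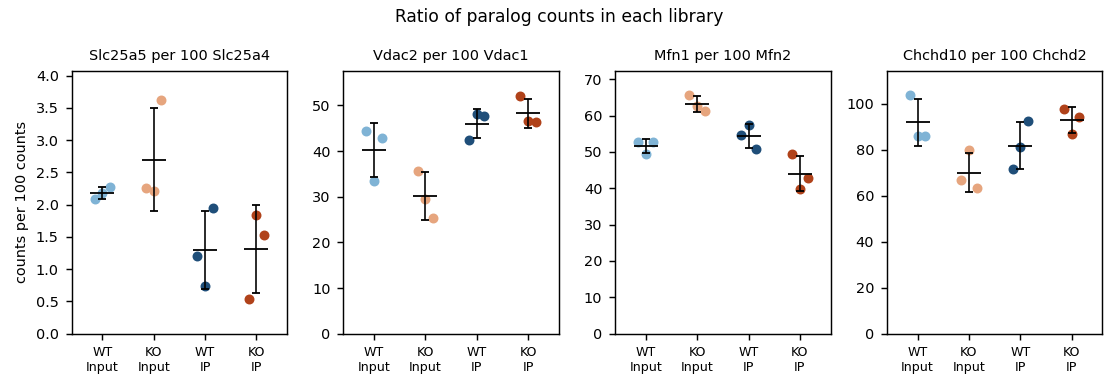
Counts of one paralog per 100 counts of the other (y axes, from 0) in each library of the 4 groups (x axes), with group mean and SD in black. Slc25a5 per 100 Slc25a4 is lower in IP, and Mfn1 per 100 Mfn2 is higher in KO Input and lower in KO IP than in the WT libraries of the same fraction.

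From a list of 94 other genes of import, transport, dynamics, mitophagy and proteolysis, 71 were tested. In WT 10 were lower in IP and none higher, where 8.67% of all tested genes were lower and 5.37% higher. In KO 12 were lower and 4 higher, beside 9.78% and 6.64% of all genes. List medians were 0.10 and 0.04. Of 17 tested list genes with under 600 coding bases, 7 were lower in WT and 9 in KO. Among all genes of that length, 24.5% and 28.5% were lower. Lower in both genotypes, with the smallest p, were Micos13 (-1.31, SE 0.17, adjusted p 7.20e-06 in WT, -1.84, SE 0.18, adjusted p 1.14e-07 in KO) and Micos10 (-0.90 and -1.12), small subunits of the cristae junction complex that holds Immt. Micos13 stood at 513, 589 and 601 CPM in WT Input and 255, 226 and 204 in WT IP, all IP libraries below all Input libraries. The inner membrane peptidase subunit Immp1l was lower too (-1.39 and -1.35), as were the import motor subunit Pam16 in WT (-0.88) and Dnajc15 in KO (-1.01). These genes have short coding sequences, from 228 bases in Micos10 to 498 in Immp1l. With the transcript length trend removed, Pam16 lost its WT call (-0.30, adjusted p 0.280, edgeR), and the others kept theirs. That correction does not address coding length, since the transcripts of Micos10 (2549 bases) and Dnajc15 (6193 bases) are long.

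Of 7 tested mitophagy genes of this list, 4 were higher and 1 lower in KO IP (6.64% and 9.78% of all genes). In WT 0 of them were called (5.37% and 8.67% of all genes). The lower one was Fkbp8 (168, 123 and 96.6 CPM in Input, 91.0, 62.8 and 69.8 in IP, -0.84, SE 0.25, adjusted p 0.0194), for which fits leaving out a library are not reported here. Higher were the adaptors Sqstm1 (1.06, SE 0.19, adjusted p 0.000401) and Tax1bp1 (0.74), the receptor Bcl2l13 (1.01) and the damage sensor Nipsnap2 (0.52). Sqstm1 was at 213, 269.6 and 188 CPM in KO Input and 483, 535 and 391 in KO IP, fully apart, and held its call without any single library. WT libraries were at 356, 417 and 285 CPM in Input and 499, 394 and 440 in IP. For this gene KO Input lay below WT Input in every library, and the IP libraries of the genotypes overlapped. Tax1bp1, Bcl2l13 and Nipsnap2 lost theirs in 3, 3 and 4 of 6 fits that leave out 1 library (adjusted p up to 0.244, 0.247 and 0.0931), KO Input replicate 1 among them each time. None of the 71 differed between genotypes in Input, in IP or in the interaction by edgeR, with 7, 0 and 5 at an unadjusted p under 0.05. Nipsnap2 had the smallest p in Input (1012, 1046 and 786 CPM in WT, 586, 705 and 534 in KO, log2 fold change -0.64, SE 0.16, adjusted p 0.148). Here KO and WT libraries were fully apart. In IP the smallest p was that of Micos13 (-0.37, adjusted p 0.943), and in the interaction that of Nipsnap2 (0.79, adjusted p 0.359). In Input Nipsnap2 passed when no count filter was applied (-0.69, adjusted p 0.0303).

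Promoters were searched because nuclear respiratory factors are known regulators of import and mitochondrial genes. RefSeq windows of GRCm38.p6 matched 36 of the 42 members (41 windows, from 250 bases before to 50 after a start). The 10-base NRF1 motif, on either strand, was in 8 of 41 windows (19.5%), against 4.60% of 32851 windows of all genes. The GABPA motif CCGGAAG was in 16 (39.0% against 8.86%) and the E-box CACGTG in 6 (14.6% against 7.15%). None of these motifs contains another. Tomm20, lower in IP in both genotypes, holds NRF1 and E-box matches, and the 250 bases before its start are shown with the NRF1 match, on the other strand, in capitals (chr8:126945922-126946171, minus strand). A match is a description and not a site.
Tomm20: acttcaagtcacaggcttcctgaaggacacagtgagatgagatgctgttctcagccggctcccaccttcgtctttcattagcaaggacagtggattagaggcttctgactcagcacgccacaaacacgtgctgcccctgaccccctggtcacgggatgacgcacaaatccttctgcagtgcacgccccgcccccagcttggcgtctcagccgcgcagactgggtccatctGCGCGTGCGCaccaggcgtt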

How the data were processed

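Poly(A) RNA of 12 libraries, 3 per genotype and fraction, was read as nanopore direct cDNA on a MinION, per the labels' protocols. The authors deposited raw read counts per Ensembl gene for each library. Per the submitters' processing notes, minimap2 2.14, DESeq2 1.34.0 and the build GRCm38 were used, without their roles. The counting rule and strand use are not given there. Identifiers were paired with GENCODE M21 names (55141 of 55401 matched).

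One model of the 12 libraries was fitted with edgeR 4.0.16 in R 4.3.3 (quasi-likelihood test, TMM factors, filterByExpr with a minimum count of 10 and total of 15), without pairing. P-values were adjusted by Benjamini-Hochberg over 6596 genes, with a threshold of 0.05. The SE is the fold change over the root of F. The script was tested on simulated data. Alternatives were other scalings, filters, DESeq2 1.42.0, limma 3.58.1 (voom), a replicate block, a transcript length correction, and each library left out. Leaving out both shallowest Input libraries and adding near-identical copies were chosen after seeing the data.

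The members and lists were chosen with earlier results of these data known. Values per library are given for up to 6 members per direction with the smallest p among those that passed in a comparison (where under 3 passed, the 3 with the smallest p), for the paralog sets, and for Rpl3l as group means. From the other pathway genes up to 4 that passed per direction are named, or else the 1 with the smallest p. Further genes, including those whose groups did not overlap, were named after their values were seen.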

Additional observations from a re-analysis of the deposited data

Results flagged for a closer look

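Mfn1 counts per 100 Mfn2 counts moved in opposite directions with genotype in the 2 fractions. The ratio was 52.8, 49.4 and 52.7 in WT Input and 65.7, 62.5 and 61.3 in KO Input, higher in every KO library. It was 54.8, 57.4 and 50.7 in WT IP and 49.4, 39.8 and 42.8 in KO IP, lower in every KO library. KO against WT in IP, divided by KO against WT in Input, came to 0.663. This difference in the ratio was not tested. Neither gene passed the interaction test by itself (Mfn1 -0.35, adjusted p 0.831, and Mfn2 0.25, adjusted p 0.873, edgeR). Groups of 3 libraries are too small for the check on outlying samples.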

How the results depend on the processing

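No member was called between genotypes, in either fraction or in the interaction, under any setting tried. Leaving out 1 library at a time, 6 to 10 members were called between IP and Input in WT and 7 to 11 in KO, against 12 in each with all libraries. With a replicate block, 11 were called in WT and 11 in KO. Same-numbered libraries had correlations of -0.0932 to 0.0211, and 2 of 12 correlated best with their own number. Both of these were comparisons of KO with WT, and none was a comparison of IP with Input. Most genes have few counts here, which lowers such correlations, so they cannot tell whether the numbers pair the samples. A fit of the compared libraries alone called 17 in WT and 10 in KO, limma-voom 14 and 13, and the length correction 8 and 10. No direction reversed. The cause of the lost calls was not tested. Depth limits Input most, where Fundc1 had 1, 8 and 10 counts in KO.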

Other observations

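Of 7 near-identical copies with at least 50 counts, 3 had counts per 100 of the member that did not overlap between fractions in WT, 1 of them in KO too. Vdac3-ps1, an annotated unprocessed pseudogene copy of the porin gene Vdac3 with 99.2% identity, had 101, 82 and 88 counts in WT IP and 0, 23 and 15 in WT Input. In KO it had 64, 91 and 94 counts in IP and 11, 0 and 0 in Input. Per 100 Vdac3 counts it stood at 50.6 ± 3.50 and 45.9 ± 2.34 in WT and KO IP, and 11.7 ± 10.1 and 4.53 ± 7.84 in WT and KO Input (SD, n = 3), without overlap between fractions in either genotype. Gm6222 stood at 1.41 ± 0.29 per 100 Chchd2 counts in WT IP and 0.356 ± 0.190 in WT Input, and Gm16209 at 25.4 ± 3.01 and 12.98 ± 0.94 per 100 Timm23 counts. Both overlapped in KO. Zbed5, whose transcript matches Chchd2 over 447 bases at 98.5% identity, stayed between 4.63 and 6.14 counts per 100 Chchd2 counts as a group mean.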
